A study of Sus scrofa with 48 samples.

Results

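Circular RNAs (circRNAs) were compared among the 12 long RNA libraries of seminal plasma extracellular vesicles (SPEVs) from boars with low sperm motility, the L group. These libraries, named L1 to L12 after their replicate numbers, were taken by their phenotype label and are 12 of the 24 long RNA libraries and of 48 libraries in all. The boars were sexually mature Yorkshire males by the record of the series (large white in the paper), aged 14 to 36 months, with a mean total sperm motility of 0.40, and each gave 1 library. Vesicles were pelleted by ultracentrifugation from 60 mL of semen plasma per boar according to the labels (the methods of the paper give a smaller volume), passed through a filter and turned into stranded total RNA libraries from a very small RNA input. Nothing in the labels marks a batch among these libraries, and the age and motility that the paper lists for each boar could not be matched to libraries. No test of high against low sperm motility was made.

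CircRNAs form by back-splicing, in which the end of an exon is joined to the start of the same or an earlier exon, so that the molecule has no free ends. Without free ends they resist exonucleases, which makes them long-lived in cells and in body fluids, where vesicles shield them further. SPEVs are shed by the epithelium of the epididymis and of the accessory glands, and in part by cells of the testis, and they fuse with or bind to sperm.

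The measured value was the number of reads that cross a back-splice junction, as counted by the authors, with each circRNA named by its position in the pig assembly Sscrofa11.1. Whether a count comes from 1 of the 2 callers that the authors used or joins both is not stated, which bears on what each read number and the lack of values of 1 mean. Of 17379 circRNAs in the table, 13476 (77.5%) had reads in at least 1 L library, with 3996027 junction reads in all. The total per library had a median of 297976 and was highest in L12 with 593023, 4.61-fold that of L1, the lowest. RPM below is the junction reads of a circRNA per 1000000 circRNA junction reads of its library, so that 3 reads, a mark chosen here and not a measured limit, correspond to 5.06 RPM in L12 and 23.3 RPM in L1. These values and the intervals on shares of reads treat reads as independent, and the intervals on shares of circRNAs treat circRNAs as independent. None covers differences between boars. PCR copies are not independent molecules, so that intervals on reads may be too narrow. No removal of duplicates is given in the sources used here. L12 stood apart by its number of circRNAs, and L3 by which circRNAs were abundant, so that the ranges resting most on either are also given without it, a choice made after the data were seen.

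The L libraries differed widely in the number of circRNAs detected with at least 1 junction read. L1 had the lowest number with 1437, the median was 2359, and L12 had the highest with 5716, a 3.98-fold range around a mean of 2767 ± 1356 (SD, n = 12). L7, L6 and L4 were near the low end with 1482, 1513 and 1584 circRNAs, and L8 and L11 came after L12 with 4255 and 4118. The circRNAs of L1 came from 1062 host genes and those of L12 from 2672, the highest number, whereas L6 had the fewest host genes with 1022. A host gene thus gave 1.31 circRNAs on average in L1 and 2.08 in L12. In L1, 21.6% of the circRNAs shared a start or an end with another circRNA of the library, and in L12 47.7% did.

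**Figure D1:**
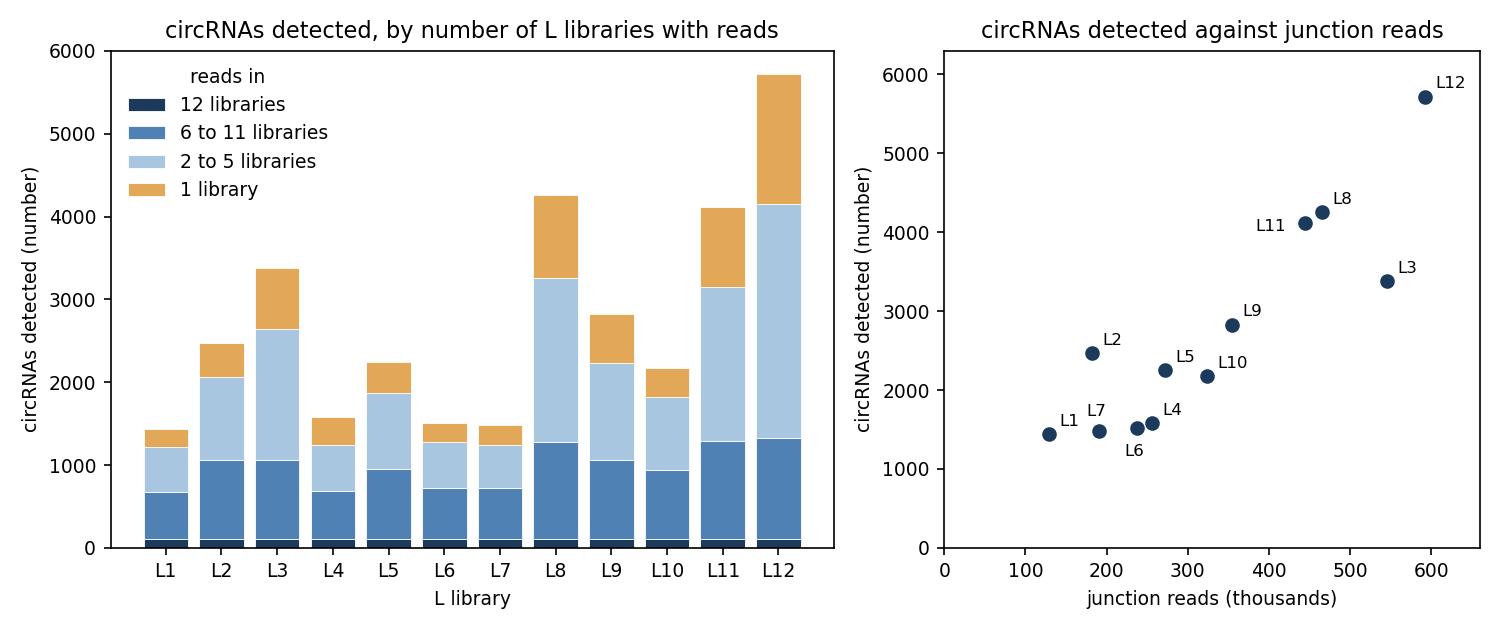
Left, number of circRNAs detected in each of the 12 L libraries, stacked by how many L libraries had reads of the circRNA; right, the same totals against the junction reads of each library, 1 point per library. Totals run from 1437 (L1) to 5716 (L12), and the part found in 1 library only grows from 216 circRNAs in L1 to 1569 in L12.

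Libraries with more junction reads had more circRNAs. Over the 12 libraries, Pearson r was 0.892 (two-sided permutation p = 0.00015, adjusted p = 0.00045 over the 6 relations tested) and Spearman rho was 0.867 (p = 0.00045, adjusted p = 0.0009). Without L3 and L12, the libraries farthest from the median depth, r was 0.884 (permutation p = 0.00111, n = 10). Junction reads are the sum over the circRNAs detected, so that these measures are not independent. Thinning of the counts to the reads of L1 cannot show what lower sequencing depth would give, since the deposited counts hold almost no low values.

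Few circRNAs rested on few reads. The authors required at least 2 reads for a candidate, and whether this held within each library is not stated. No value of 1 was present. Of the detections, 21 of 33201 had 2 reads, and 707 (2.13%) had fewer than 10. The median detection carried 70 reads and the largest 8146. Per library, the median reads per detected circRNA was lowest in L2 with 44, had a median of 78 and was highest in L4 with 113, for a mean of 78.4 ± 22.1 (SD, n = 12). L4 also had the smallest tail of low values, with 1 circRNA under 10 reads of 1584, against 122 of 2470 in L2 (4.94%), the largest share, and 219 of 5716 in L12 (3.83%). The median reads per circRNA followed neither the depth of the library (r = −0.155, permutation p = 0.627, rho = −0.0769, p = 0.818, adjusted p = 0.627 and 0.818) nor, at this sample size, the number of circRNAs detected (r = −0.546, permutation p = 0.0657, adjusted p = 0.0986; rho = −0.469, p = 0.127, adjusted p = 0.191). Without L8 and L12 the second relation had r = −0.352 (p = 0.318 from the same test), and without L3 and L12 the other had r = −0.0586 (p = 0.869).

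Most circRNAs were seen in a single L library. Of the 13476, 7054 (52.3%) had reads in 1 library, 4968 (36.9%) in 2 to 5, 1352 (10.0%) in 6 to 11, and 102 (0.757%) in all 12. The shares of reads were ordered otherwise. The single-library circRNAs carried 10.6% of the junction reads, those in 2 to 5 libraries 27.9%, those in 6 to 11 libraries 44.0% and the 102 found in all 12 carried 17.5%. A detection of a single-library circRNA had a median of 46 reads, and one of a circRNA found in all 12 had 358.5. The number of distinct circRNAs had not levelled off. A library added 1848 new circRNAs on average when it came second and 588 when it came last of the 12.

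Each library had its own set of such circRNAs. Their share of the circRNAs detected was lowest in L1 with 15.03% (95% Wilson interval 13.3 to 17.0%), had a median of 19.1% and was highest in L12 with 27.4% (26.3 to 28.6%). This share rose with the number of circRNAs detected (r = 0.870, permutation p = 0.00043, adjusted p = 0.00086; rho = 0.874, p = 0.00043, adjusted p = 0.0009, n = 12), and without L8 and L12 r was 0.727 (permutation p = 0.0165). Both measures count the same circRNAs, so that they are not independent. In reads, by contrast, the single-library circRNAs took between 8.32% in L2 and 15.8% in L4, and L12 with its 1569 of them gave 10.6%. Of the 7054, 6681 (94.7%) had an RPM above what 3 reads amount to in every other L library, and 1636 (23.2%) were more than 10 times above it. Reported values are rarely as low as 3 reads, so that the working limit, which was not measured, may lie higher. The part of depth in these absences was not tested. The deposited counts hold circRNAs reported by both callers of the authors, so that a 0 can also come from a circRNA that 1 caller missed, which was not tested.

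The circRNA with most reads among those of a single library was named for each library. CCDC30, which encodes a coiled-coil protein, had the largest such value, 565 reads in L4 (2206 RPM), at least 94.6-fold above the 3-read mark of any other L library. It spans exons 16 to 18 of 22 at chr6:168777569-168790058 and had no reads in the other libraries of either group. FBXW4, a component of ubiquitin ligases, gave 488 reads in L6 and PLA2G4A, the phospholipase that releases arachidonic acid, 305 in L7. C2CD6, a protein of the calcium channel complex of the sperm tail, gave 400 reads in L9 and was also present in 5 of the 12 libraries of the high motility group. For RBM27, an RNA-binding protein, the 252 reads of L1 were at least 119-fold above the mark of the other L libraries. ATP13A3 in L10 (377 reads), KMT2C in L3 (355), CBFA2T2 in L12 (280), CCSER2 in L5 (276), DENND1B in L11 (241), AGPAT4 in L8 (233) and CDK8 in L2 (165) completed the 12. The smallest ratio to the mark was that of CBFA2T2, at least 20.2-fold. Beside C2CD6, RBM27, CBFA2T2 and AGPAT4 were present in 2, 3 and 1 libraries of the high motility group. Of all 7054 single-library circRNAs, 2043 (29.0%) had reads in that group. The share was 51.2% over all 13476 circRNAs with L reads and 75.6% over those of 2 or more L libraries.

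Most single-library circRNAs came from a gene with circRNAs in other libraries too. Of the 6639 with a host gene, 5314 (80.0%) lay in a gene that gave another circRNA in another L library, between 77.3% in L2 and 85.7% in L6. A start or an end was shared with a circRNA of 2 or more L libraries in 2302 of the 7054 (32.6%). Both ends, each with a different partner, were shared in 282 (4.00%). Counted by host gene, 1266 of 4484 genes (28.2%) were seen in 1 library and 211 (4.71%) in all 12. A gene counts wherever any of its circRNAs does, so that it cannot be seen in fewer libraries than any of its circRNAs.

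Some circRNAs were missing from 1 library and present in all others, where their abundance differed widely. Of 129 circRNAs with reads in 11 L libraries, 37 were missing in L4 and 26 in L1, but none in L12 and 1 in L11. At the mean RPM of the other 11, the missing library would have given between 48.3 and 1811 reads, with a median of 187. That mean can rest on few libraries. The SPAG9 circRNA missing in L3, an example chosen after its values were seen, gave 227 such reads. Its RPM in the others ran from 16.9 to 1312, with a median of 202. The TLK1 circRNA at chr15:77234646-77283482, the fourth most abundant in the mean over the libraries, had between 4775 and 10616 RPM in 11 libraries and no read in L5. TLK1 is a Tousled-like kinase that acts on histone chaperones during replication. In L5, 3 other circRNAs that share an end with it had 768 reads together. BICDL1, a dynein adaptor chosen after its values were seen, gave the 1811 reads, which scale with the junction reads of L3 where its circRNA at chr14:40098524-40101523 was missing. Its values in the other libraries were as low as 221 RPM, far below those of TLK1.

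Pairs of libraries were compared by the Jaccard index, the number of circRNAs found in both over the number found in either. Over the 66 pairs it had a mean of 0.194 and ran from 0.137 for L4 and L12 to 0.296 for L8 and L12. L8, L11 and L12 had the 3 highest values among themselves, 0.296, 0.284 and 0.280, and they are also the libraries with most circRNAs. L4 and L1 had the lowest means to the other libraries, 0.158 and 0.165, and few circRNAs. The index is bounded by the ratio of the numbers in both libraries, so that pairs of unequal size cannot reach a high value. As a share of the smaller library, between 27.8% and 63.8% of the circRNAs were found in the larger one.

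**Figure D2:**
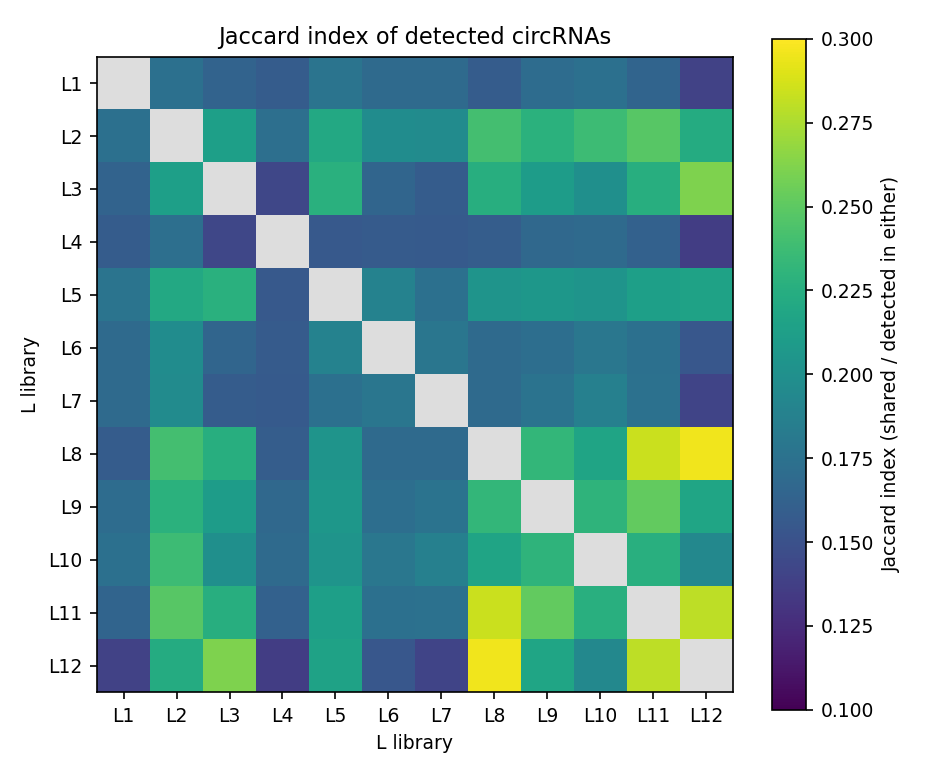
Jaccard index of the circRNAs detected for each of the 66 pairs of L libraries, as a colour from 0.1 to 0.3, with the diagonal in grey. The highest values are those of L8, L11 and L12 with each other (0.280 to 0.296), and the lowest is that of L4 and L12 (0.137).

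Among the 102 circRNAs found in all 12 libraries, the order of abundance was only moderately alike. The Spearman correlation of their RPM, a description across 102 circRNAs that are not independent and share the depth of each library, had a mean of 0.515 over the pairs. It was highest for L8 and L12 with 0.761 and lowest for L2 and L3 with 0.207. L3 stood apart most, with a mean correlation of 0.419 to the other libraries. It held the lowest RPM of 20 of the 102 circRNAs and the highest of 12. These counts depend on the scaling to total reads, whereas the rank correlation does not. Without L3 the lowest correlation of any pair was 0.362 and the mean 0.535. Its own leading circRNA was that of PTGES3, as in 5 other libraries.

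The most abundant circRNA differed between the libraries but came from few genes. PTGES3, the HSP90 co-chaperone p23, led in 6 libraries (L2, L3, L8, L10, L11 and L12). PRKAR1A, a regulatory subunit of protein kinase A, led in L4, L5 and L7. LRCH1, a protein with leucine-rich repeats and a calponin homology domain, led in L6, and UBAP2, a ubiquitin-associated protein and a common host of circRNAs, led in L1. In L9 the leader was a circRNA on an unplaced scaffold at position 1036980 to 1040665, which was not annotated here. It had 11463 RPM in L9, 0 RPM in 5 libraries and reads in 7, L9 among them. The leading circRNA took between 0.869% of the junction reads in L8 (95% Wilson interval 0.843 to 0.897%) and 1.55% in L10 (1.50 to 1.59%).

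The PTGES3 circRNA at chr5:22008784-22009750 joins exons 2 to 4 of 8 and was the most even of all 102 circRNAs. It had 8694 RPM in L8, a median of 10546 and 15456 in L10, with a mean of 11432 ± 2215 (SD, n = 12). Its coefficient of variation (CV, the SD over the mean) was 0.194. When libraries were scaled by the median ratio over the 102 shared circRNAs in place of their total reads, its CV was 0.293 and that of TLK2 with 0.260 was lower. PRKAR1A (chr12:11669306-11671052, exons 5 to 7 of 11) varied more, from 4431 RPM in L11 through a median of 9612 to 14237 in L5. It was low in L8, L11 and L12, the libraries with most circRNAs, with 5361, 4431 and 5066 RPM. LRCH1 (chr11:20710449-20719541, exons 16 to 18 of 19) had 3964 RPM in L5, a median of 6833 and 13319.5 in L6. UBAP2 (chr10:32817449-32827084, exons 3 to 6 of 28) had 2257 RPM in L3, a median of 4916 and 10813 in L1, with 6756 in L7 as the next highest.

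The junctions of these 4 circRNAs and of TLK1 are shown because they are what the counted reads cross. Each is read 5′ to 3′ on the transcribed strand from the NCBI RefSeq genome sequence of Sscrofa11.1, with the last 15 bases of the circRNA in lower case and its opening 15 bases in capitals, and all lie in coding sequence. Strands are plus for UBAP2 and minus for the others.
PTGES3: aaagaaagggcgaagGCAGCCTGCTTCTGC
PRKAR1A: agaagaatccttatgTGATATTTTTGATGC
LRCH1: ttaggcgtaccagagTGTTTCTAAGACCAC
UBAP2: gagctcgtggaagagGCAACAGCTGAACAG
TLK1: atgaaagtagtcaggGTGCAATGGATGAAC

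Further circRNAs among the 10 highest in mean RPM each varied several-fold. TBC1D22A, with a domain that acts on RAB GTPases, ranged 3.44-fold from 2119 RPM in L3 to 7286 in L6, and 2.48-fold without L3. PSD3, an exchange factor for the GTPase ARF6, ranged 9.68-fold from 1029 RPM in L12 to 9956 in L2, and 5.87-fold without L12. CSPP1, a protein of centrosomes and cilia, had 2323 RPM in L3 and 7925 in L5. GORASP2, which links the stacks of the Golgi, had 1228 RPM in L12 and 6507 in L3, a 5.30-fold range that was 4.67-fold without L3 and 2.30-fold without L12.

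Over the 102 circRNAs the CV had a median of 0.542, with the middle 50% between 0.439 and 0.671. Low values after PTGES3 were those of LOC110257335, annotated as Golgi phosphoprotein 3 (0.289), TLK2, a Tousled-like kinase (0.293), and SNX6, a sorting nexin of endosomes (0.293). The highest belonged to LOC110256791, a long noncoding RNA, with 1.09. Its circRNA of 1 exon at chr14:37526132-37526344 had 366 RPM in L6, a median of 1639 and 10189 in L3. Without L3 its CV was 0.890 and its highest value 5721 RPM in L1, so that UBLCP1 came before it. UBLCP1, a phosphatase of the proteasome, had a CV of 1.07 (1.05 without L3) and values from 98.6 RPM in L9 to 2780.1 in L4, with 1278 in L2 as the next highest. LOC102162695, another long noncoding RNA, had a CV of 0.944 with its highest value in L7, and an intergenic circRNA at chr15:46294098-46315302 had 0.877 with its highest value in L2. ELF2, a transcription factor of the ETS family, had a CV of 0.846 (0.753 without L3), with 6201 RPM in L3 and 5228 in L5 and 241 in L2. Thus 2 of the 5 most variable circRNAs peaked in L3.

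**Figure D3:**
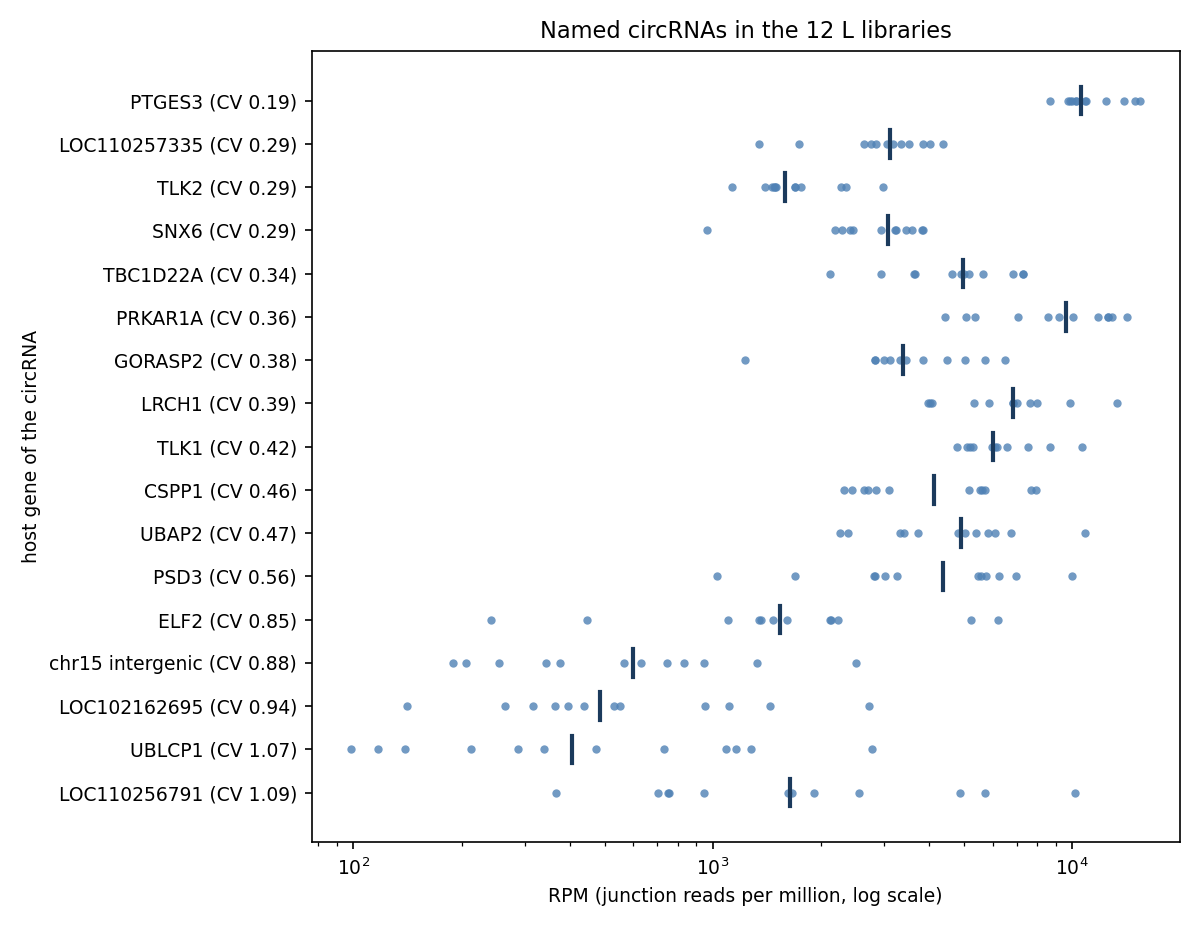
RPM (log scale) of circRNAs among the 10 with the highest mean and the 5 with the lowest and highest CV, by host gene, with 1 point per L library and a bar at the median of the 12; a value of 0 (TLK1 in L5) is not drawn. PTGES3 lies between 8694 and 15456 RPM, whereas LOC110256791 runs from 366 to 10189 RPM.

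Genomic span, the end minus the start of a circRNA, had similar medians in all libraries. The median span was lowest in L3 with 5638 bases, had a median of 6512 and was highest in L4 with 7590 bases, for a mean of 6623 ± 645 (SD, n = 12). It did not follow the number of circRNAs detected (r = 0.248, permutation p = 0.440, adjusted p = 0.528; rho = 0.231, p = 0.472, adjusted p = 0.566, n = 12), also not without L8 and L12 (r = −0.0840, permutation p = 0.816, n = 10). The shortest span was 138 bases and the longest 99662. Weighted by reads, the median of L3 was 4438 bases and that of L8, the highest, was 7367.

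CircRNAs found in more libraries were shorter. The median span was 8386.5 bases for circRNAs of 1 library, 6902.5 for those of 2 to 5, 5667.5 for 6 to 11 and 5607 for all 12. The fall was not steady, and the lowest median, 4118 bases, was that of circRNAs of 11 libraries. Within each of the 12 libraries, the circRNAs of that library alone had a longer median span than those shared with others, with the smallest difference in L3 (medians of 6314 and 5457 bases) and the largest, 3594 bases, in L2. The length in exons went the same way, from a median of 510 bases for 1 library to 314.5 for all 12, among circRNAs with both ends on exon edges of 1 gene. Of these circRNAs, those that begin at the second exon of their gene were 18.9% (1069 of 5667) for 1 library and 42.9% (42 of 98) for all 12. The introns on both sides were longer as well, with medians of 5201 and 9086.5 bases upstream and of 4265 and 7608.5 bases downstream. All introns of coding transcripts had a median of 1582 bases. Exons at the start of genes are known to lie beside long introns, and long introns are known to favour back-splicing. These comparisons are across circRNAs, which are not replicates, and no test was made on them.

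**Figure D4:**
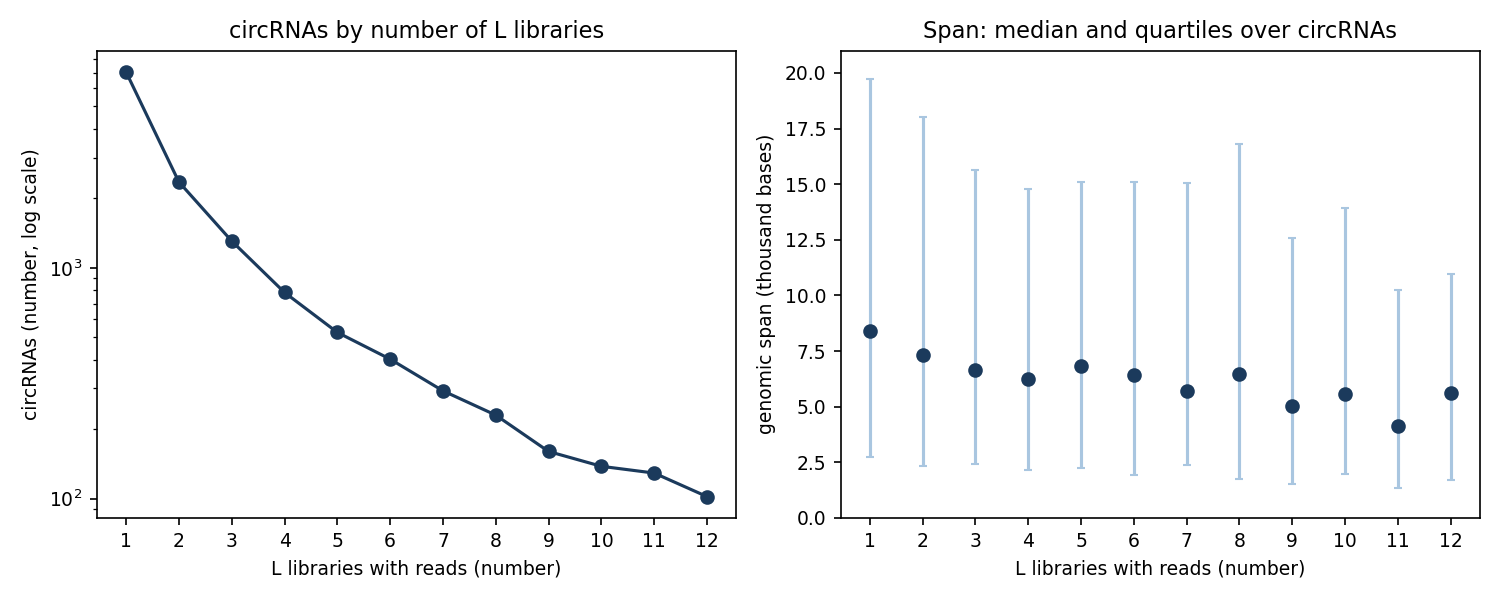
Left, number of circRNAs (log scale) by the number of L libraries with reads; right, their genomic span in kilobases, with the median as a point and the quartiles as bars over circRNAs. The number falls from 7054 to 102, and the median span from 8386.5 bases in 1 library to 5607 in 12.

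The shortest circRNA of all 12 libraries was 1 exon of SPECC1L, a protein that links actin and microtubules, at chr14:49380314-49380521 (plus strand, exon 5 of 15, coding sequence). It had 199.8 RPM in L7, 473 in L10 as the next lowest, a median of 861 and 2504 in L6, with 1609 in L4 as the next highest. Its whole sequence of 208 bases is shown from the NCBI RefSeq genome of Sscrofa11.1, 5′ to 3′, since a single short exon closed on itself is the simplest form that all 12 libraries shared. Capitals mark the 15 bases at each end that meet at the junction.
SPECC1L: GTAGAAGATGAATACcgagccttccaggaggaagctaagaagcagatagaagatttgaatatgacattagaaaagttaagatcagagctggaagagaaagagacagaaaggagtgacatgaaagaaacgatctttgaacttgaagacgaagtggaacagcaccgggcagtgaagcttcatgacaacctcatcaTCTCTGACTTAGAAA

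The 4 circRNAs next in span were also single exons, of LOC110256791, of AUTS2, a partner of Polycomb proteins, of TBC1D8 and of DLG5, a scaffold of cell polarity. AUTS2 is the extreme case of a short exon between long introns, with a span of 212 bases, 288614 bases of intron before it and 280046 after it. At the long end, LOC100514051, a long noncoding RNA, gave a circRNA of 11 exons over 67188 bases, with 246 RPM in L5, 741 in L7 as the next lowest, and 1849 in L6. TESK2, a kinase of cofilin found in testis, reached 48175 bases with only 3 exons, from 329.6 RPM in L9, with 658 in L2 as the next lowest, to 3648 in L5. SATB1, an organizer of chromatin, spanned 45086 bases with 9 exons, CEP63 of the centrosome 37452 bases with 5, and ZMYND11, a reader of methylated histones, 33810 bases with 4. The last of these had 101 RPM in L1, from 13 reads, 372 in L9 as the next lowest, and 1443 in L12. Among these short and long circRNAs the highest library was between 4.26-fold (DLG5) and 27.9-fold (LOC110256791) above the lowest, beside a median of 7.65-fold over the 102. DLG5 had 3253 RPM in L2, with 1765 in L4 as the next highest. LOC110256791 was lowest in L6 with 366 RPM, with 705 in L12 as the next lowest. Without L3 the upper end was 19.9-fold, that of TBC1D8, and LOC110256791 had 15.7-fold. The value for TBC1D8 rests on L8 with 53.7 RPM, with 211 in L12 as the next lowest.

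How even the junction reads were depended on the index. Pielou evenness, which is 1 when all circRNAs have the same reads, was lowest in L12 with 0.915, had a median of 0.932 and was highest in L4 with 0.944. It fell as the number of circRNAs rose (r = −0.931, permutation p = 1e-05, the smallest that 100000 resamples can give, adjusted p = 6e-05; rho = −0.909, p = 0.00014, adjusted p = 0.00084, n = 12). Without L8 and L12 r was −0.906 (permutation p = 0.00043, n = 10). The number of circRNAs is part of the formula of this index, so that the measures are not independent. By 1 minus the Gini index the range was wider, from 0.414 in L12 to 0.533 in L4, with the same libraries at the ends. The 30 most abundant circRNAs took 10.8% of the reads in L12 (95% Wilson interval 10.7 to 10.8%), a median of 13.2% and 14.6% in L2 (14.5 to 14.8%). To reach 50% of the reads took 270 of 1482 circRNAs in L7, the fewest, and 633 of 5716 in L12, so that a minority of circRNAs held most reads. L12 thus had the most circRNAs, the least even reads and the smallest share in its 30 leaders, and its single-library circRNAs had the lowest median of any library, 32 reads.

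Host genes with most circRNAs also varied in how many they showed. All circRNAs detected ranged 3.98-fold, from 1437 in L1 to 5716 in L12, and the part of this in the counts below was not tested. SMARCC1, a core subunit of SWI/SNF chromatin remodelling complexes, gave 38 circRNAs over the L libraries, 17 of them in 1 library, with 1 circRNA in L7, 4 in L1 as the next lowest, a median of 7.5 and 27 in L12 (13 in L8 without L12). Summed over its circRNAs, it had between 1407 RPM and 5845 in L4, with 3425 in L12 as the next highest, and its largest circRNA took 16.7% of its mean. CHD2, a chromatin remodeller, gave 32 circRNAs, from 2 in L1, L4 and L6 to 18 in L12 (15 without it). BRWD1, a bromodomain protein needed in male and female germ cells, gave 26, from 1 in L4 and L7 to 14 in L3 (8 without it). PATJ, a scaffold of tight junctions, gave 26 as well, from 3 in L1, L2 and L10 to 12 in L3 (9 without it). ABCB5, a membrane transporter, gave 25 with none in L3, where 3 reads amount to 5.50 RPM, and up to 4656 RPM in L6. Without L3 its lowest sum was 378 RPM in L5.

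Gene lists were read by their number of hosts and by their summed RPM, without a test. Of 19535 protein-coding genes on chromosomes, 4304 (22.0%) gave a circRNA in the L libraries. In bulk material of this kind, fewer vesicles or cells of a type and less RNA in each cannot be told apart.

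Of 21 known hosts of conserved circRNAs that are on chromosomes, 19 gave circRNAs, 105 in all, of which 41.0% were found in 1 library against 52.3% of all circRNAs. The list was made of genes known as hosts, with earlier results of these data known, and these numbers are not independent of that choice. The sum of the list had 11243 RPM in L9, a median of 18060.1 and 26505 in L7. UBAP2 led with 22 circRNAs and between 4528 and 15400.2 RPM. Its mean was 9299 RPM of the 17792 of the list. MAN1A2, a mannosidase of the Golgi, UBXN7 and the focal adhesion kinase PTK2 were also present in all 12 libraries, with medians of 1400.0, 484 and 999.5 RPM. HIPK3, host of a widely studied circRNA, was seen in 4 libraries and ZKSCAN1 in 5. CREBBP, a histone acetyltransferase, gave 9 circRNAs in 10 libraries with a highest sum of 1269 RPM in L6. CORO1C and EPHB4 gave none.

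Genes of epididymal and accessory gland epithelium had the narrowest range of summed RPM among the lists seen in all 12 libraries. Of 23 on chromosomes, 15 were hosts, and their sum had 5054 RPM in L12, a median of 6144 and 8824 in L11, a 1.75-fold range. The members behind this sum changed between libraries. PATJ, the tight junction scaffold named above, gave the largest part, a mean of 2623 RPM of the 6469 of the list. It ran from 998 RPM in L2 to 4435 RPM in L3. The range of the list without PATJ was not computed, so that the narrow range may not hold for the other members. ADAM7, a surface protein made in the epididymis and passed to sperm, had a median of 1714 RPM and 2715 in L2, but 206 RPM in L5, 194 in L12 and none in L3. ADAM28, a related protein, had its highest value in L5 with 1201 RPM. EPCAM, an adhesion protein of epithelia, went the other way in L3 with 2096 RPM, its highest value, and had none in L2. Its next highest value was 1243 RPM in L11. CRISP1, a secreted epididymal protein that coats sperm, was seen in 8 libraries, with 914 RPM in L10, 894 in L11, 684 in L7 and 489 in L5 as the highest values. The prostate marker MSMB and the keratins KRT8 and KRT18 gave none.

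Germ cell genes had the widest range of the lists seen in all 12 libraries, although the CV of their sum, 0.680, was close to the 0.693 of the vesicle list. Of 38 on chromosomes, 18 gave circRNAs, 49 in all, with 63.3% in 1 library. Their sum had 300.4 RPM in L3, a median of 1833 and 5048 in L7, a 16.8-fold range that was 9.29-fold without L3 and that also narrowed without L7, to a highest value of 3335 RPM. It was high in L7, L1 and L6 with 5048, 3335 and 3118 RPM, which are also the 3 libraries with the fewest circRNAs. The part of the number of circRNAs in this was not tested. ZPBP, a sperm protein that binds the zona pellucida, was the most abundant, with a median of 508 RPM and 2855 in L7, with 1045 in L12 as the next highest. The chaperone HSPA4L had 1629.9 RPM in L7 and 563 in L6, and SPEF2 of the sperm tail had up to 752 in L2. PIWIL1, which works with piRNAs in spermatids, had 902 RPM in L1 and 408 in each of L8 and L9. The protamines PRM1 and PRM2 and the transition proteins TNP1 and TNP2 gave none.

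Genes of vesicle formation were read in the same way. Of 36 genes of the ESCRT complexes, their partners, tetraspanins, flotillins, RAB GTPases and a sphingomyelinase, 11 were hosts (30.6%, beside 22.0% of all protein-coding genes, a difference that was not tested), with 18 circRNAs and a sum of 346 RPM in L2, a median of 863 and 2483 in L6. The endosomal adaptor STAM2 and the recycling GTPase RAB11A, each with 1 circRNA in 9 libraries, made up most of it, with up to 1444 RPM in L5 and 1105 in L6. TSG101 and PDCD6IP, which act in vesicle budding, were seen in 7 and 6 libraries. The vesicle marker genes CD9, CD63 and CD81 gave no circRNA, which says nothing about their mRNA or protein.

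Of the factors known to act on back-splicing, 10 of 16 were hosts, with no circRNA in L1, a median of 743 RPM and 2039 in L8. HNRNPM led by its mean of 338 RPM, with up to 1001 in L10. ESRP1, a splicing factor of epithelia that is also in the epithelial list, was seen in 7 libraries. It had up to 1167 RPM in L7, with 575 in L8 as the next highest. QKI was seen in 4 libraries with up to 169 RPM. Of 19 leukocyte genes, LCP1 alone gave circRNAs, in L3 (352 RPM), L9 (211), L8 (114) and L12 (111), and PTPRC, ITGAM and S100A8 were among the 18 at 0.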

How the data were processed

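The values are raw read counts at back-splice junctions, deposited by the authors. Per the paper's methods, find_circ and CIRI2 both had to report a circRNA, and candidates needed 2 junction reads or more. The 12 L columns were matched to samples by name, 0 columns were without a library, and the counts were used without a filter or normalization other than RPM. Members and gene lists were chosen with earlier results of these data known.

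Ends were compared with the NCBI annotation (Release 106) of Sscrofa11.1. Of 13373 circRNAs on chromosomes, all had splice signals that gave a strand, and 99.1% of 12849 with a host gene lay on its strand. The host was the gene with exons at both ends, otherwise the gene holding both. The 103 circRNAs on scaffolds were not annotated here.

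The text names the circRNA with most reads in each library, the 10 of highest mean RPM, those found in all 12 with the 5 lowest and highest CV and the 5 shortest and longest spans, the leading single-library circRNA of each library, the 5 host genes with most circRNAs, and list members, with some of these left out. Across libraries, 6 relations were tested by two-sided permutation (100000 resamples), adjusted after Benjamini and Hochberg. P values measure the spread between 12 boars, with 1 library each. The alternatives were minimum reads of 5 and 10, equal depth, 10 RPM, no scaffolds, host genes as the unit, other indices, log10 scales, size factors and omission of libraries. The routines were tested on simulated data. Python 3.11.15, NumPy 2.4.6, SciPy 1.17.1 and pandas 2.3.3 were used.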

Additional observations from a re-analysis of the deposited data

How the results depend on the processing

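The number of circRNAs detected, with a mean of 2767, lay between 2708 and 2757 with at least 5 or 10 junction reads, at equal depth and without scaffolds, less than 1 SD away. Equal depth is no test here, because the counts hold almost no low values to lose. The mean over libraries of the median reads per circRNA, 78.4, was 36.8 at equal depth, where every library has the depth of L1, and 124 with the mean in place of the median. The median span of 6623 bases became 409 as exonic length, and it stayed within 1 SD with reads as weights. No span exceeded 100000 bases. Evenness was 0.9504 without the 30 most abundant circRNAs, 0.916 per host gene and 0.488 as 1 minus the Gini index, a different scale. With the host gene as the unit, 211 were found in all libraries, 1266 (28.2%) in 1, and the mean Jaccard index was 0.375. When each library was left out in turn, chosen after seeing the data, between 102 and 139 circRNAs were in all remaining libraries, 6515 to 7017 (52.5 to 54.7%) in 1, and the mean Jaccard index was 0.189 to 0.201. Of the 36 values of r under the alternatives, 34 stayed on their side of an adjusted p of 0.05. At equal depth the median reads were related to junction reads (r = −0.858) and to circRNAs detected (r = −0.921), since equal reads are then shared among more circRNAs. With size factors, the CV was lower for 12 and higher for 13 of 25 named circRNAs. Without L3 or without L12, also chosen after seeing the data, the CV of LOC110256791 was 0.890 or 1.05 in place of 1.09. No paired analysis was possible because no groups were compared. The lowest abundance that each library can show is not known, and the ages and motility listed per boar were not matched to libraries.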
